A study of Saccharomyces cerevisiae with 12 samples.

Results

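Probes for 4 yeast reading frames that lie in or beside Ty retrotransposons, YFL002W-B, YDR210W-B, YDR210C-D and YER138W-A, were followed across 12 spotted arrays. They were found as the probes whose systematic name in the platform annotation equals one of these names, which gave 1 probe for each of the 4 frames out of 6388 gene probes. The frames were chosen by their log2 ratios to the reference on these arrays and across the 6 media, so those ratios and the differences between media are given as a description, with no test. Neither the platform annotation nor the reference gene table (RefSeq, assembly R64) gives a product for them. A list of Ty frames drawn up from standard yeast nomenclature places YFL002W-B as a gag frame of Ty2, YDR210W-B as a gag-pol frame of Ty2 and YDR210C-D as a gag-pol frame of Ty1. YER138W-A is in none of the Ty families of that list and lies next to its Ty1 frames YER138C and YER137C-A. Only 1 of the 4 is therefore a gag frame by that list, and they are called Ty frames here.

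All cells on the arrays were wild-type BY4742, a haploid laboratory strain of mating type alpha, and no deletion strain was itself profiled. Wild-type cells were grown for 2 doublings in filtered medium (synthetic complete, 2% glucose) that another culture had used before, and the groups are named for that earlier culture. In set 2 the medium came from a bur2 deletion strain, a cho2 deletion strain or wild-type cells, and in set 1 from a cbf1 deletion strain, an npl3 deletion strain or wild-type cells. Each of the 6 media had 2 arrays, array 1 with the sample in Cy3 and array 2 with the sample in Cy5, and the other channel always held RNA from a common wild-type reference culture. The labels name no medium for the reference other than "reference". Array number and dye cannot be told apart, and neither can set and anything else that differed between the sets. Whether the arrays of a medium came from separate cultures is open, so n counts arrays and errors measure the spread between arrays.

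Ty elements are retrotransposons with long terminal repeats, which copy themselves through RNA inside virus-like particles. The upstream frame, gag or TyA, encodes the particle shell, and the long gag-pol frame, read through by a ribosomal frameshift, adds the protease, integrase and reverse transcriptase. Many near-identical copies of Ty1 and Ty2 lie across the yeast genome, and a probe for a copy can bind RNA of the others, so a value here belongs to the copies a probe can bind and not to a single locus. In RefSeq's gene order the Ty2 frame YDR210W-B and the Ty1 frame YDR210C-D are neighbours with only YDR210W-A between them.

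The 4 probes fell into 2 kinds. YDR210C-D and YER138W-A ranked 80 and 90 in brightness among the 6388 gene probes, with sample signals of 14400 to 30670 and 11780 to 30980 intensity units. YDR210W-B and YFL002W-B ranked 1328 and 1362, with sample signals of 558.3 to 1047 and 451.4 to 950.7. None of the 48 spot readings of any of the 4 exceeded 32768, and duplicate spots of a probe differed by at most 0.16 on the log2 scale. Median signals of all gene spots ranged from 169.7 to 507.4 over the arrays and channels, against median backgrounds of 43 to 53, and between the 2 arrays of each medium the ratios correlated at 0.667 to 0.817 across probes.

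YFL002W-B, the Ty2 gag frame, stood lowest on the 3 arrays of set 1 with the sample in Cy5. Its log2 ratio of sample to reference in set 2 was 0.36 and 0.36 in bur2 medium (arrays 1 and 2), 0.18 and 0.06 in cho2 medium, and 0.12 and 0.01 in wild-type medium. In set 1 it was 0.06 and -0.96 in cbf1 medium, 0.14 and -0.49 in npl3 medium, and -0.08 and -0.84 in wild-type medium. On array 2 of cbf1 medium the sample thus had 0.514 of the reference's signal. The bur2 arrays were alike and lay above every other array. In the order of the media means, bur2 (0.36) was followed by cho2 (0.12), wild-type of set 2 (0.06), npl3 (-0.18), cbf1 (-0.45) and wild-type of set 1 (-0.46). Only bur2 and cho2 among neighbours in that order had arrays that did not overlap.

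YDR210W-B, the Ty2 gag-pol frame, followed the same course. In set 2 its log2 ratio was 0.33 and 0.34 in bur2 medium, 0.17 and 0.08 in cho2 medium, and 0.15 and -0.03 in wild-type medium. In set 1 it was -0.01 and -0.84 in cbf1 medium, 0.08 and -0.41 in npl3 medium, and -0.17 and -0.72 in wild-type medium. Array 2 was again the low array in each medium of set 1, and the bur2 arrays were again the highest of the 12. Over the 12 arrays the ratios of these 2 frames correlated at 0.993 (0.981 over the 6 arrays of set 2 and 0.996 over the 6 of set 1), points that share the reference, the dye effect and possibly cross-hybridizing RNA. The order of the media means was that of YFL002W-B, and bur2 and cho2 were again the only neighbours without overlap.

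YDR210C-D, the Ty1 gag-pol frame, had more signal in the sample than in the reference on all 12 arrays. In set 2 its log2 ratio was 0.63 and 0.53 in bur2 medium, 0.41 and 0.35 in cho2 medium, and 0.49 and 0.31 in wild-type medium. In set 1 it was 0.25 and 0.09 in cbf1 medium, 0.20 and 0.22 in npl3 medium, and 0.22 and 0.07 in wild-type medium. Every array of set 2 lay above every array of set 1, and the arrays did not separate by dye the way those of the Ty2 frames did. The media means ran from bur2 (0.58) through wild-type of set 2 (0.40), cho2 (0.38), npl3 (0.21) and cbf1 (0.17) to wild-type of set 1 (0.14). Neighbours without overlap in that order were bur2 and wild-type of set 2, and cho2 and npl3.

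YER138W-A was also above the reference on all 12 arrays, by less. In set 2 its log2 ratio was 0.43 and 0.38 in bur2 medium, 0.19 and 0.17 in cho2 medium, and 0.42 and 0.20 in wild-type medium. In set 1 it was 0.07 and 0.12 in cbf1 medium, 0.05 and 0.20 in npl3 medium, and 0.07 and 0.05 in wild-type medium. The sets met at the upper end of set 1, where array 2 of npl3 medium exceeded both cho2 arrays. The media means ran from bur2 (0.41) through wild-type of set 2 (0.31), cho2 (0.18), npl3 (0.12) and cbf1 (0.10) to wild-type of set 1 (0.06), and only wild-type of set 2 and cho2, and cbf1 and wild-type of set 1, were neighbours without overlap. Its ratios correlated at 0.894 with those of YDR210C-D over the 12 arrays but at 0.194 over the 6 of set 1. Over all arrays the 4 frames averaged -0.09 ± 0.44 (YFL002W-B), -0.09 ± 0.38 (YDR210W-B), 0.31 ± 0.17 (YDR210C-D) and 0.20 ± 0.14 (YER138W-A; SD, n = 12 arrays).

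**Figure D1:**
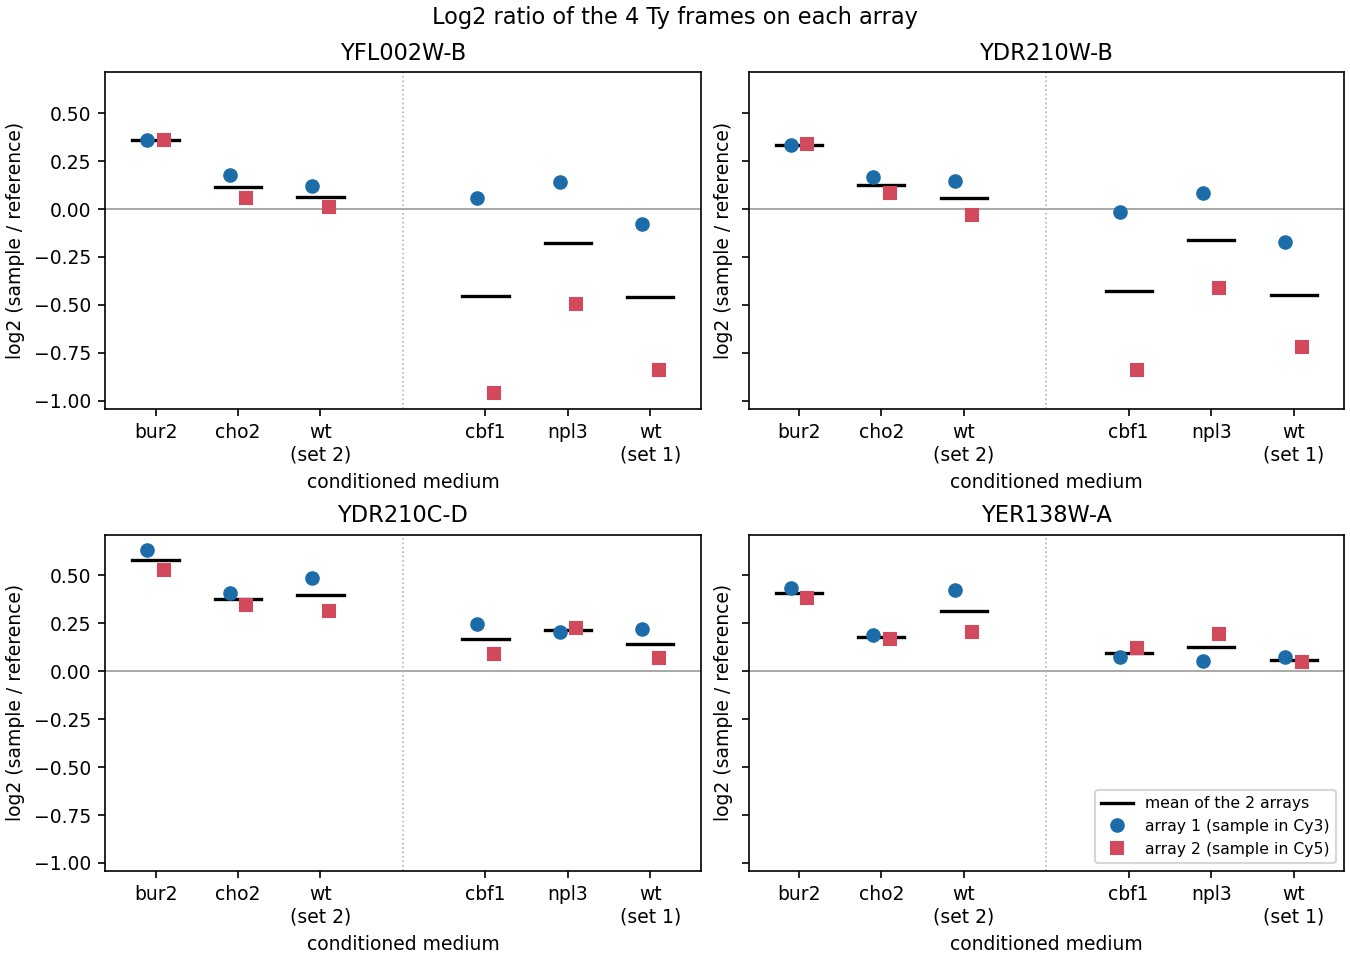
Log2 ratio of sample to reference (vertical axis) for each of the 4 Ty frames on the 12 arrays, by conditioned medium (horizontal axis; set 2 left and set 1 right of the dotted line); blue circles are array 1 with the sample in Cy3, red squares array 2 with the sample in Cy5, and bars the mean of the 2 arrays. The red squares of set 1 reach -0.96 for YFL002W-B and -0.84 for YDR210W-B, while YDR210C-D and YER138W-A stay above 0 on all 12 arrays.

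The low ratios of the Ty2 frames came with sample signals that were low relative to the median of their channel. Signals were divided by the median signal of all gene spots in the same channel and array, with no background subtracted. That median differed between the arrays of set 1. In the sample channel it was 507.4, 463.2 and 496.1 units on array 2 of cbf1, npl3 and wild-type medium, against 266.3, 254.4 and 305.3 on array 1. For YFL002W-B on array 2 of set 1 the sample channel gave 1.22 times the median in cbf1 medium, 1.81 in npl3 medium and 1.49 in wild-type medium. On array 1 of the same media the sample channel gave 3.05, 3.63 and 2.90 times the median. The reference channel was closer between the arrays, at 2.39, 2.52 and 2.64 on array 2 and 3.11, 3.50 and 3.25 on array 1. In set 2 the sample channel, Cy5 on array 2 and Cy3 on array 1, gave 3.60 and 3.20 times the median in bur2 medium, 2.85 and 2.89 in cho2 medium, and 2.36 and 2.37 in wild-type medium. For this frame the sample in Cy5 on the arrays of set 1 was thus the channel that stood apart on this scale. In intensity units its sample signal was 621.1, 836.4 and 738.8 on array 2 of cbf1, npl3 and wild-type medium of set 1, against 811.3, 924.3 and 885.7 on array 1. The part of the dye, the labelling or the array in this was not tested. Other Ty probes could differ. The Ty1 gag probe YDR210C-C fell in both channels from array 1 to array 2 in each medium of set 1. In cbf1 medium its sample went from 23.5 to 6.78 times the median and its reference from 17.9 to 5.56. In npl3 medium its sample went from 28.6 to 9.06 and its reference from 20.5 to 6.39. The Ty1 gag probes YMR046C probe 1, YPR158W-A and YDR170W-A also fell in both channels in each medium of set 1. The Ty1 gag-pol probe YPR158C-D in cbf1 medium went from 67.6 to 67.2 in the sample and from 72.2 to 69.5 in the reference.

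YDR210W-B showed the same as YFL002W-B relative to the median. Its sample channel on array 2 of set 1 gave 1.41, 1.91 and 1.53 times the median in cbf1, npl3 and wild-type medium, against 2.53, 2.84 and 2.36 on array 1. In intensity units its sample signal was not lower on array 2, at 713.5, 885.3 and 758.7 against 673.2, 721.9 and 720.8 on array 1. For the bright frames the sample channel did not drop relative to the median on those arrays. YDR210C-D gave 60.2, 59.6 and 61.8 times the median on array 2 of cbf1, npl3 and wild-type medium, against 56.7, 58.4 and 57.3 on array 1. In set 2 its sample channel was higher relative to the median, at 75.8 to 93.4 times, but so was its reference channel, at 65.3 to 76.0 times, against 49.2 to 61.7 times in set 1.

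**Figure D2:**
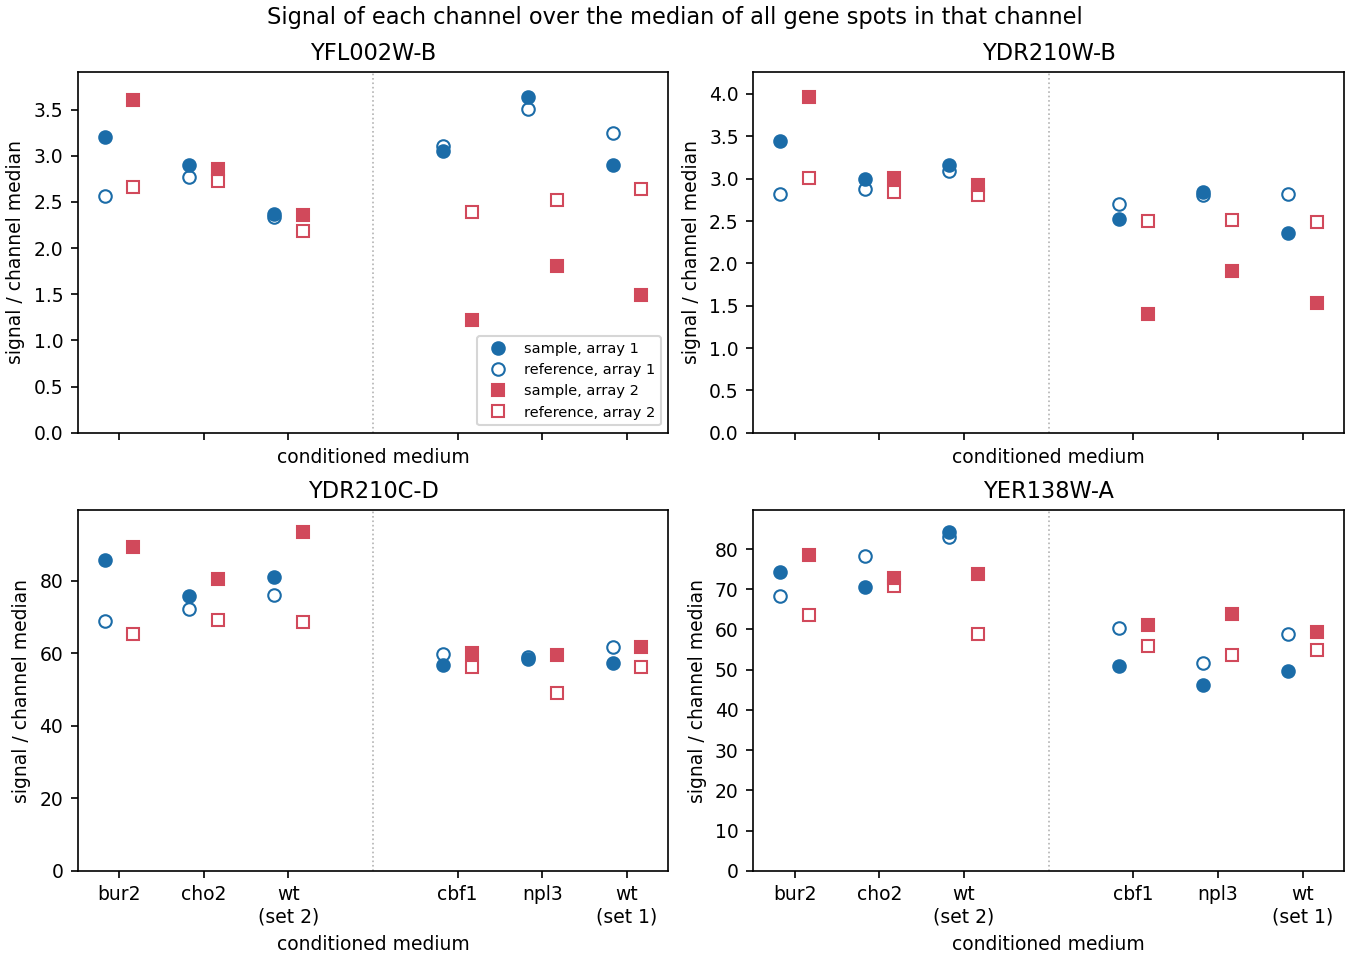
Signal of each channel divided by the median of all gene spots in that channel (vertical axis, linear, from 0) for the 4 Ty frames by conditioned medium (horizontal axis); filled symbols are the sample, open symbols the reference, blue circles array 1 and red squares array 2. The filled red squares of set 1 are the lowest points of YFL002W-B (1.22 to 1.81) and YDR210W-B (1.41 to 1.91), and no such drop shows in YDR210C-D.

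The difference between array 2 and array 1 of a medium puts a size on this. For YFL002W-B it was -0.12 to 0.0033 over the 3 media of set 2 and -1.02 to -0.63 over those of set 1. For YDR210W-B it was -0.18 to 0.0035 in set 2 and -0.82 to -0.49 in set 1. The ranges of the sets did not overlap for either frame. Fitted over all arrays, the difference of set 2 minus set 1 was 0.73 ± 0.09 for YFL002W-B (SE), the highest of the 6388 probes, and 0.53 ± 0.09 for YDR210W-B, which ranked 9. This contrast was set up after the pattern had been seen in these 2 frames, so their high ranks follow from that choice. For YDR210C-D it was -0.02 ± 0.06 and for YER138W-A -0.15 ± 0.07.

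A probe that was not among the 4 showed the same pattern. YDR261W-B, a further Ty2 gag-pol frame by the list, has 2 probes on the array. With its probe 2 the difference of array 2 minus array 1 averaged -0.08 in set 2 and -0.70 in set 1, a gap of 0.62 ± 0.07 that ranked 3 of the 6388 probes. The contrast was set up after the pattern had been seen in YFL002W-B and YDR210W-B, and this probe may bind the same Ty2 RNA, so the gap is no independent support. In that contrast 0.141% of all probes passed the limit of 0.05. The same direction held in each of the 3 media of set 1, whose values ran from -0.83 to -0.59, against -0.13 to -0.0094 in set 2. Its ratios correlated at 0.996 with those of YFL002W-B over the 12 arrays. Probe 1 of YDR261W-B, which was bright (rank 135), went the other way, with -0.17 in set 2 and 0.12 in set 1 (gap -0.29 ± 0.05). The probes for a single annotated frame thus gave opposite signs, and which copies each of them binds was not tested. YOR343W-B, also Ty2 gag-pol, had 0.0063 in set 2 and -0.20 in set 1 (gap 0.21 ± 0.04). Its probe was dim, with a sample signal of 2.05 times the background of its spots.

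**Figure D3:**
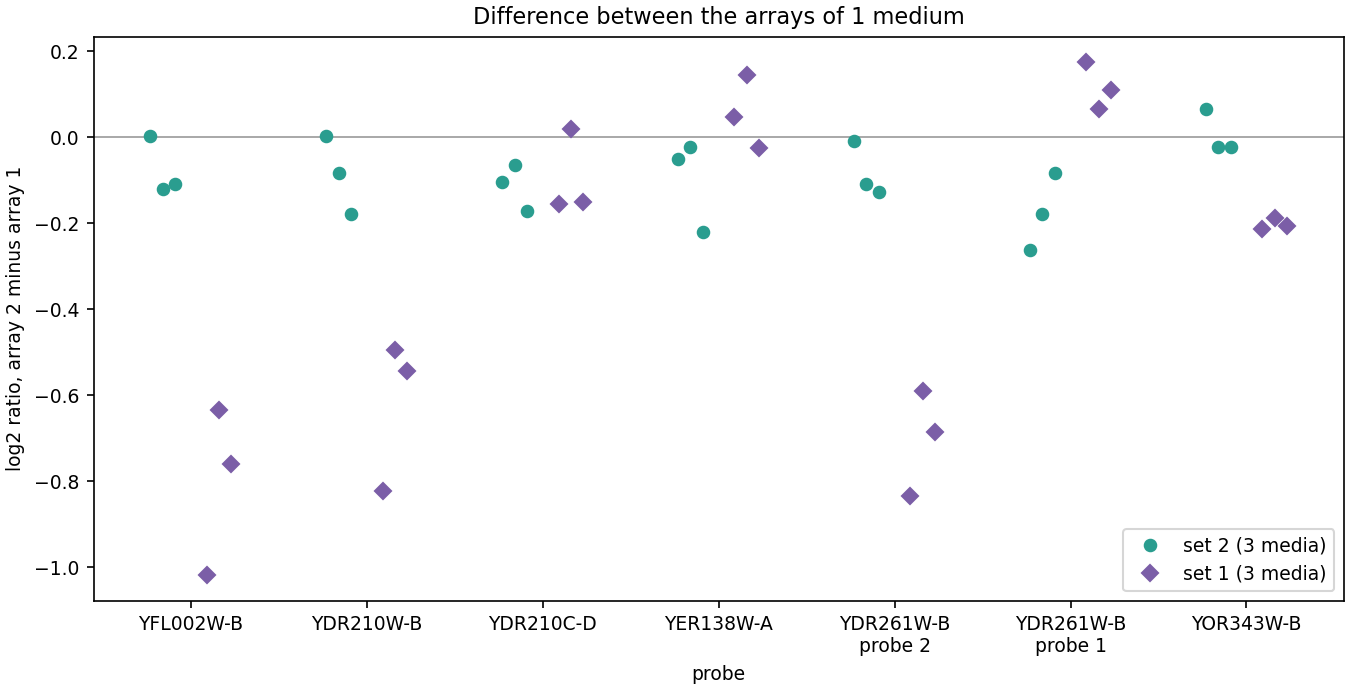
Log2 ratio of array 2 minus that of array 1 of the same medium (vertical axis) for the 4 Ty frames and 3 other Ty2 probes (horizontal axis); each point is a medium, green circles for set 2 and purple diamonds for set 1. YFL002W-B, YDR210W-B and YDR261W-B probe 2 lie at -0.49 or below in set 1 and at -0.18 or above in set 2.

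Between bur2 medium and the wild-type medium of set 2, which asks whether the used medium of that strain changed the RNA of wild-type cells, the fitted log2 differences of the frames were all positive. They were 0.30 ± 0.23 for YFL002W-B, 0.28 ± 0.18 for YDR210W-B, 0.18 ± 0.05 for YDR210C-D and 0.09 ± 0.07 for YER138W-A (SE from the fit over 12 arrays), or 1.23-fold, 1.21-fold, 1.13-fold and 1.07-fold. Array against array, YFL002W-B was higher in bur2 medium by 0.24 on array 1 and 0.35 on array 2, and YDR210C-D by 0.15 and 0.22. YER138W-A was higher by 0.01 and 0.18. The sign of YDR210C-D depended on the normalization: loess within each print tip gave -0.15, where the 7 other settings gave 0.16 to 0.26. The 0.26 came from the deposited log2 table, which the authors had also normalized per print tip. Settings of the dye term could not change this difference, as each medium has 1 array per dye. Without array 1 of bur2 medium the difference was 0.56 for YFL002W-B and 0.49 for YDR210W-B, and without array 2 it was 0.03 and 0.06. Such a fit adjusts the array left by 1 dye term fitted over both sets. The array difference of set 1 thus enters these values. YER138W-A had -0.02 without array 2 of wild-type medium and 0.21 without array 1. Of all 6388 probes 0% passed the limit in this comparison (limma, 242 at an unadjusted p under 0.05).

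None of the 20 other Ty probes passed in bur2 against wild-type medium. Their smallest adjusted p was 0.491, and 8 had an unadjusted p under 0.05. All 20 had a positive difference (0.0043 to 0.47, median 0.09), where 48.7% of all probes did and the median of all was -0.0016. These are not 20 separate readings, as many of the probes may bind the same RNA. YPL060C-A probes 1 and 2, YJL114W and YMR046C probe 2 had sample signals under 2 times the background of their spots. With median centring 15 of the 20 were positive and under the 3 other scalings 19 to 20. The highest were the Ty1 gag frames YDR210C-C (0.47), YMR046C probe 1 (0.45) and YPR158W-A (0.39). Without array 1 of bur2 medium the differences of these 3 were 0.63, 0.62 and 0.56. That fit leaves 1 array of bur2 medium, adjusted by the dye term fitted over both sets. A fit without array 2 is not given for them. On arrays 1 and 2 the ratios of YDR210C-C were 1.16 and 1.31 in bur2 medium against 0.77 and 0.76 in wild-type medium. They were 1.09 and 1.26 against 0.79 and 0.65 for YMR046C probe 1, and 0.96 and 1.33 against 0.70 and 0.81 for YPR158W-A. Both bur2 arrays were above both wild-type arrays, and array 2 was the higher bur2 array for these 3.

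Against cho2 medium, bur2 medium was also higher for all 4 frames, by 0.24 ± 0.23 for YFL002W-B, 0.21 ± 0.18 for YDR210W-B, 0.20 ± 0.05 for YDR210C-D and 0.23 ± 0.07 for YER138W-A. Array against array, both had this direction for each frame, with 0.18 and 0.31 for YFL002W-B and 0.17 and 0.25 for YDR210W-B. Without array 2 of bur2 medium the fitted difference was -0.02 for YFL002W-B and -0.0041 for YDR210W-B. Without array 1 it was 0.51 and 0.42. The array left was again adjusted by the dye term fitted over both sets, so these values are not those of 1 pair of arrays. Print-tip loess again turned YDR210C-D, to -0.12, and the deposited log2 table gave 0.42. Of the other Ty probes 16 were positive and 4 negative, none passed the limit (7 at an unadjusted p under 0.05, smallest adjusted p 0.519), and 0% of all probes passed (limma, 532 at an unadjusted p under 0.05). Of the 20, YPR158W-A alone passed without array 1 of bur2 medium (0.47, adjusted p = 0.0461), where 0.141% of all probes did.

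The cho2 medium itself was close to the wild-type medium of set 2. The differences were 0.05 ± 0.23 for YFL002W-B, 0.07 ± 0.18 for YDR210W-B, -0.02 ± 0.05 for YDR210C-D and -0.13 ± 0.07 for YER138W-A. The value of YER138W-A came from array 1 (-0.23) more than from array 2 (-0.03). Without array 1 of wild-type medium it was -0.01. That of YFL002W-B ranged from -0.15 to 0.25 with an array left out, where the dye term of both sets enters. Array against array it was 0.06 on array 1 and 0.05 on array 2. Among the other Ty probes 13 were positive and 7 negative, none passed the limit or an unadjusted p under 0.05, and 0% of all probes passed (limma, 126 at an unadjusted p under 0.05).

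In set 1, npl3 medium gave higher values of the Ty2 frames than wild-type medium, by 0.28 ± 0.23 for YFL002W-B and 0.28 ± 0.18 for YDR210W-B. Both pairs of arrays had this direction, with 0.22 on array 1 and 0.34 on array 2 for YFL002W-B and 0.26 and 0.31 for YDR210W-B. Without array 2 of wild-type medium the fitted differences were 0.09 and 0.17, and without array 1 they were 0.47 and 0.40. The array left was adjusted by the dye term fitted over both sets. YDR210C-D (0.07 ± 0.05) and YER138W-A (0.06 ± 0.07) differed by -0.01 and -0.02 on array 1 and by 0.16 and 0.15 on array 2. Of the other Ty probes 15 were positive and 5 negative, none passed, 1 had an unadjusted p under 0.05, and 0% of all probes passed (limma, 181 at an unadjusted p under 0.05).

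The cbf1 medium differed from wild-type medium of set 1 by 0.0046 ± 0.23 for YFL002W-B, 0.02 ± 0.18 for YDR210W-B, 0.02 ± 0.05 for YDR210C-D and 0.04 ± 0.07 for YER138W-A. For the Ty2 frames these means hid opposite arrays, as YFL002W-B differed by 0.13 on array 1 and by -0.12 on array 2. Leaving out array 1 of cbf1 medium gave -0.34 for YFL002W-B and leaving out array 2 gave 0.35. The array left was adjusted by the dye term fitted over both sets, and both values lay further out than the array differences. None of the 20 other Ty probes passed the limit or an unadjusted p under 0.05, and 0% of all probes passed (limma, 85 at an unadjusted p under 0.05). Set against npl3 medium, cbf1 medium differed by -0.28 ± 0.23 for YFL002W-B, -0.26 ± 0.18 for YDR210W-B, -0.05 ± 0.05 for YDR210C-D and -0.03 ± 0.07 for YER138W-A. Without array 2 of cbf1 medium the difference of YFL002W-B was 0.07, and without array 1 it was -0.62, with the same adjustment. Array against array it was -0.08 on array 1 and -0.47 on array 2. No other Ty probe passed in that comparison (1 at an unadjusted p under 0.05), where 0.0313% of all probes did, 2 probes for SIT1 and TIS11. These comparisons share the wild-type or npl3 arrays of set 1, as those of set 2 share theirs.

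**Figure D4:**
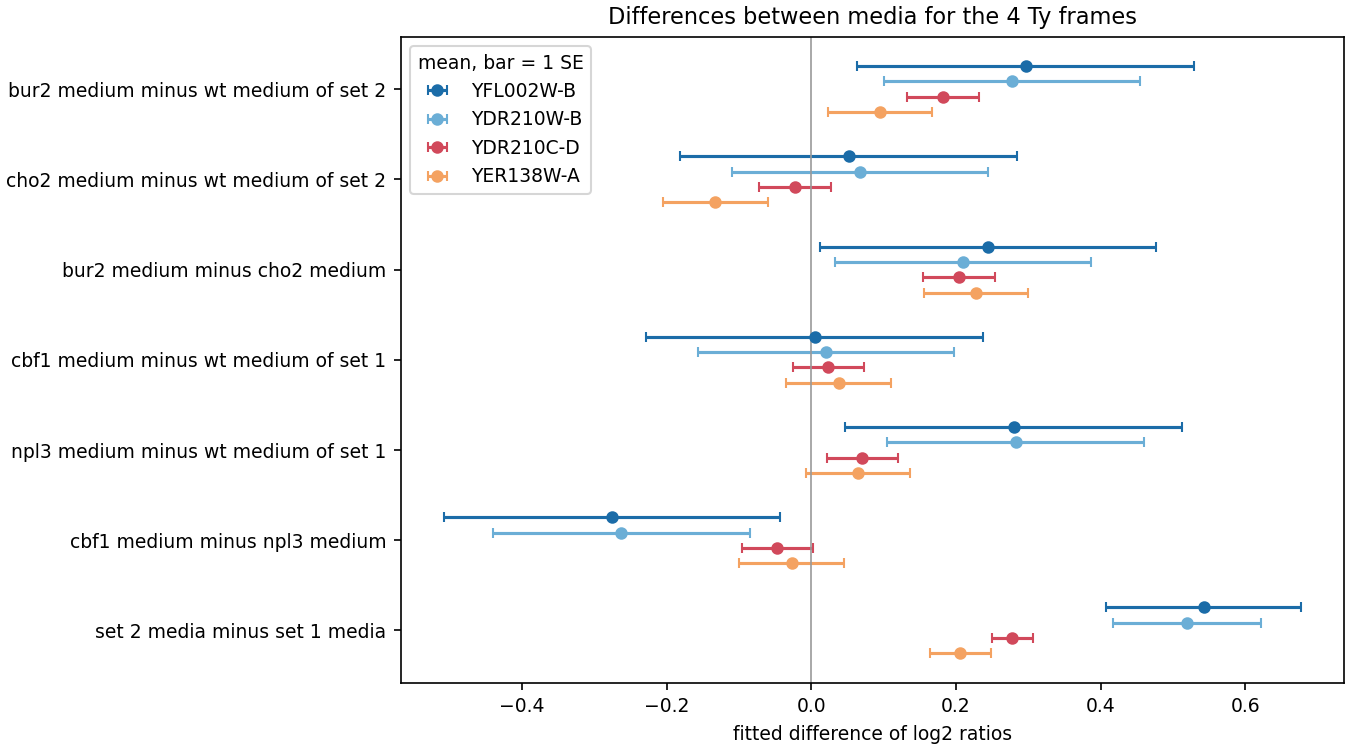
Fitted difference of log2 ratios (horizontal axis) for the 4 Ty frames in the 7 comparisons (vertical axis), with bars of 1 SE from the fit over 12 arrays. The Ty2 frames YFL002W-B and YDR210W-B carry SEs of 0.23 and 0.18, YDR210C-D and YER138W-A 0.05 and 0.07, and all 4 are above 0 for bur2 against wild-type medium and for set 2 against set 1.

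The errors of the Ty2 frames were far above those of most probes. The median SE of a difference between media was 0.05 over all probes, and 0.0939% of probes had a larger SE than YFL002W-B and 0.501% than YDR210W-B. For YDR210C-D 48.7% of probes had a larger SE and for YER138W-A 16.7%. The fit holds 1 dye term for all arrays, so an array 2 minus array 1 difference that is not the same in both sets enters these SEs. That difference was -0.80 in set 1 and -0.08 in set 2 for YFL002W-B. It was -0.62 and -0.09 for YDR210W-B, and -0.10 and -0.11 for YDR210C-D. In the fit with an array term for each set, the gap between these differences had an SE of 0.09 for either Ty2 frame. By the design a difference between media has a smaller SE than that gap in the same fit. The SEs of 0.23 and 0.18 from the fit with 1 dye term are thus larger than the spread of the Ty2 frames once each set has its own array term. The exact share was not computed.

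Media of set 2 were set against those of set 1. The 3 media of set 2 minus the 3 of set 1 gave 0.54 ± 0.13 for YFL002W-B, 0.52 ± 0.10 for YDR210W-B, 0.28 ± 0.03 for YDR210C-D and 0.21 ± 0.04 for YER138W-A, or 1.46-fold, 1.43-fold, 1.21-fold and 1.15-fold. Under the other settings the value of YDR210C-D ranged from 0.17 to 0.38 and that of YER138W-A from 0.13 to 0.27. The wild-type media themselves were on either side of this gap, at 0.06 ± 0.08 in set 2 and -0.46 ± 0.54 in set 1 for YFL002W-B (SD, n = 2 arrays each). For YDR210C-D they were at 0.40 ± 0.12 in set 2 and 0.14 ± 0.11 in set 1. For the Ty2 frames the gap was narrower on array 1, where set 2 had 0.12 to 0.36 and set 1 -0.08 to 0.14 for YFL002W-B, than on array 2, where set 2 had 0.01 to 0.36 and set 1 -0.96 to -0.49.

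The other Ty probes were tested in the same contrast. Of the 20, 11 were higher in set 2 past the limit, or 55%, and none was lower, where 9.88% of all probes passed in either direction and 4.6% were higher in set 2. Their median difference was 0.24, against -0.0048 over all probes. The share rests on probes that may bind the same RNA, and it fell to 3 of 20 in a fit with no dye term, where 1.55% of all probes passed and 0.924% were higher in set 2. By family, 5 of 6 Ty1 gag probes, 4 of 5 Ty1 gag-pol probes and 2 of 3 Ty2 gag-pol probes passed, and none of the 2 Ty3 and 4 Ty4 probes did. Of the Ty2 probes that passed, YOR343W-B was dim, at 2.05 times the background of its spots in the sample channel. Of the 4 Ty4 probes, YPL060C-A probe 1 and YJL114W gave 1.12 and 1.25 times the background of their spots in the sample channel, YPL060C-A probe 2 1.83 times and YHL009W-B 2.05 times, and no comparison with the brighter families is drawn from them. The Ty3 and Ty4 differences were -0.02 to 0.09 (gag frames -0.02 for YGR109W-A and 0.06 for YJL114W). The Ty3 probes YGR109W-A and YGR109W-B gave 3.81 and 8.36 times background, and the difference between families was not tested. The set difference of YGR109W-A and of YPL060C-A probe 1 changed sign between scalings, and that of every other Ty probe was positive under all 5.

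The 5 smallest p among the other Ty probes belonged to Ty1 frames. YPR158W-A (gag) averaged 0.92 in set 2 and 0.46 in set 1, a difference of 0.46 ± 0.05 (limma, adjusted p = 0.00214). Its ratios were 0.96 and 1.33 in bur2 medium, 0.84 and 0.85 in cho2 medium and 0.70 and 0.81 in wild-type medium of set 2, and 0.37 to 0.54 over the arrays of set 1, with no overlap. YPR158C-D (gag-pol) averaged 0.41 in set 2 and 0.10 in set 1 (difference 0.31 ± 0.03, adjusted p = 0.00239). YMR046C probe 1 (gag) averaged 0.93 in set 2 and 0.42 in set 1 (0.51 ± 0.06, adjusted p = 0.00246). YDR210C-C, the gag frame beside YDR210C-D, averaged 0.98 in set 2 and 0.50 in set 1 (0.48 ± 0.06, adjusted p = 0.00276), and YDR170W-A (gag) 0.84 in set 2 and 0.31 in set 1 (0.53 ± 0.07, adjusted p = 0.0034). On the scale of log2 ratios to the reference, YDR210C-C (mean 0.74 over 12 arrays), YPR158W-A (0.69) and YMR046C probe 1 (0.68) were the highest of the 20 other Ty probes, ranking 30, 53 and 56 of 6388. The lowest of the 20 were YOR343W-B (-0.11), YDR261W-B probe 2 (-0.10) and YPL060C-A probe 1 (0.0042). The signal of YOR343W-B was only 2.05 times its background and that of YPL060C-A probe 1 only 1.12 times. The 4 frames ranked 295 (YDR210C-D), 724 (YER138W-A), 4952 (YDR210W-B) and 5008 (YFL002W-B). Probes of a single frame could disagree here too: YMR046C probe 2, at 1.38 times background, had a set difference of 0.05 (adjusted p = 0.204), and YDR261W-B had 0.14 with probe 1 (adjusted p = 0.147) and 0.52 with probe 2 (adjusted p = 0.0286).

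**Figure D5:**
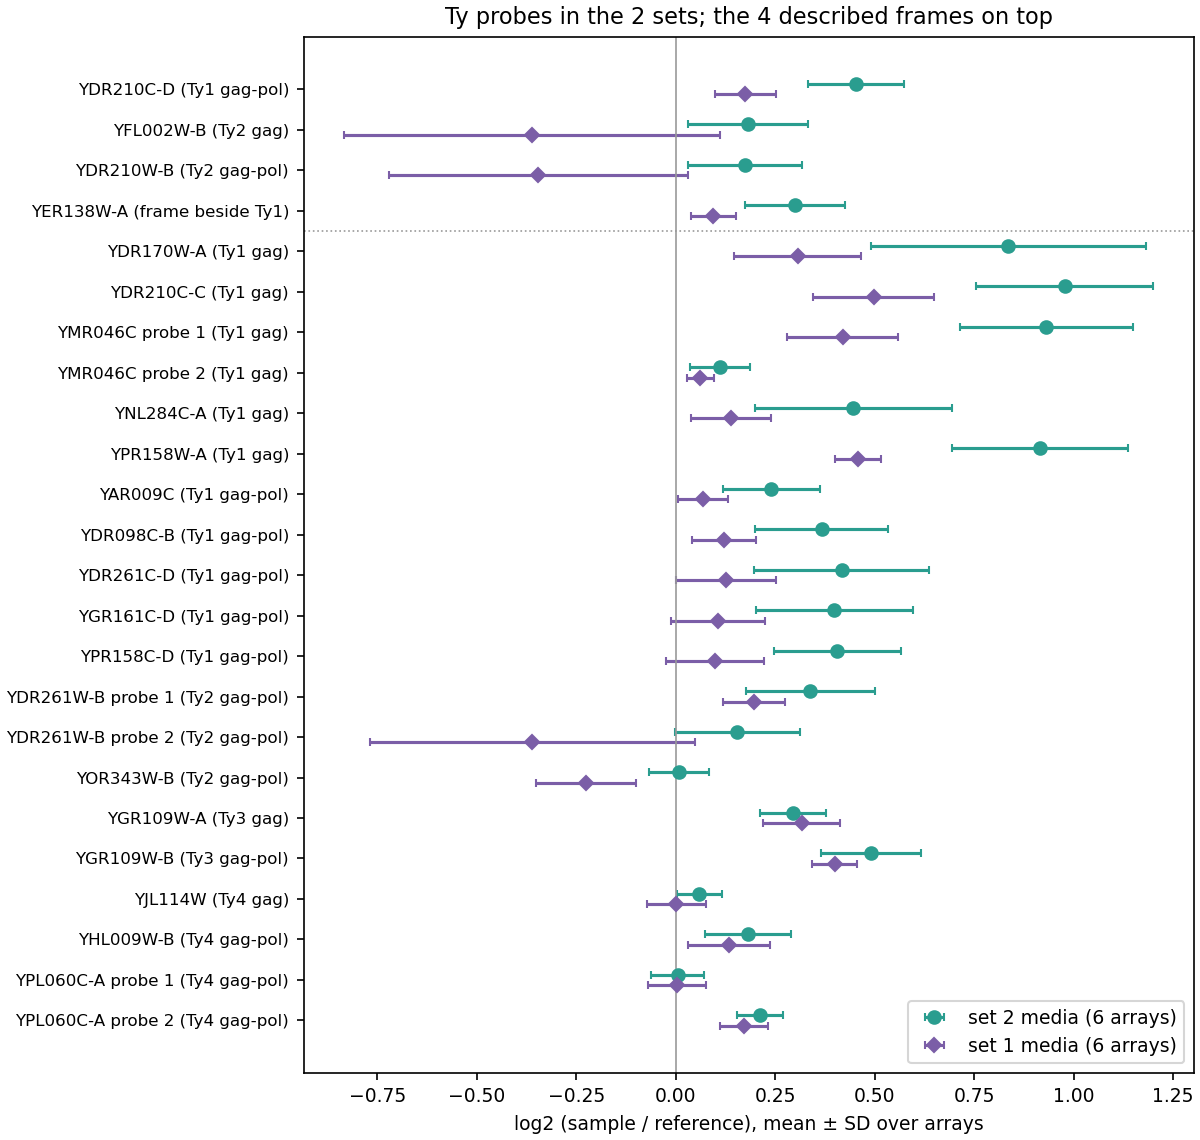
Mean log2 ratio of sample to reference with its SD over 6 arrays (horizontal axis) in set 2 (green circles) and set 1 (purple diamonds) for the 4 Ty frames, above the dotted line, and the 20 other Ty probes (vertical axis). The Ty1 gag frames reach 0.98 in set 2 against at most 0.50 in set 1, while the Ty3 probes, at 3.81 and 8.36 times background, differ by at most 0.09 between the sets. The Ty4 probes lie at 1.12 to 2.05 times background.

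Ty1 transcription needs the mating and filamentation factors Ste12 and Tec1 and is switched down in a/alpha diploids, so regulators and mating-type markers were read beside the frames. Of 15 activators of Ty transcription 1 passed the limit in set 2 against set 1 and none in the 6 comparisons between media. Of all probes 9.88% passed between the sets. The median difference of the list was -0.00099 between the sets, against -0.0048 over all probes. TEC1 averaged 0.25 in set 2 and 0.08 in set 1 (0.17 ± 0.04, adjusted p = 0.0442). STE12 averaged 0.19 in set 2 and 0.08 in set 1 (0.11 ± 0.03, adjusted p = 0.0548), and SPT3, a subunit of the SAGA coactivator, 0.20 in set 2 and 0.27 in set 1 (-0.07 ± 0.02, adjusted p = 0.0914). GCN4, the activator of amino acid synthesis genes, had a difference of -0.02 ± 0.05 (adjusted p = 0.87). Of 18 measured genes of 19 known to restrain or assist Ty transposition, 1 passed in the same contrast and none between media. Neither count exceeded the share of all probes. PMR1, a Golgi calcium and manganese pump, averaged -0.05 in set 2 and -0.16 in set 1 (0.11 ± 0.02, adjusted p = 0.028). RTT106, a histone chaperone, had -0.08 ± 0.02 (adjusted p = 0.0541) and RPC40, a shared subunit of RNA polymerases I and III, -0.14 ± 0.04 (adjusted p = 0.0588). Whether any of these genes had a part in the level of the Ty frames was not tested.

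Mating-type markers were read as a check of the strain. All 4 alpha-specific genes gave sample signals of 51.1 to 262 times the background, and all 6 haploid-specific genes 6.99 to 23.1 times. The 6 a-specific genes gave 1.25 to 2.34 times, with MFA1, MFA2, AGA2 and BAR1 under 2. In set 2 against set 1, 1 of these 16 genes passed the limit, RME1 (0.12, adjusted p = 0.0371), where 9.88% of all probes did, and the list medians were 0.03 for alpha-specific, 0.0068 for a-specific and 0.04 for haploid-specific genes.

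Among 5302 named probes of other genes, the log2 ratios most like the mean of the 4 frames over the 12 arrays were those of IRE1 (Pearson r = 0.938), MSC7 (0.934), SIP1 (0.932), THI11 (0.93), PFK1 (0.928) and SKY1 (0.927). They are the extremes of many correlations over 12 points that share the reference, the dye and the set. MSC7 was nearer to the Ty2 frames (0.95) than to the bright frames (0.705), and PFK1 about as near to either (0.871 and 0.895). IRE1 ranged from -0.17 to -0.02, PFK1 from -0.29 to 0.10 and SKY1 from -0.20 to 0.27 over the 12 arrays. THI11 belongs to a family of near-identical thiamine genes, and its probe can bind their RNA. The least alike were NSE1 (-0.962), RPC11 (-0.948) and FYV6 (-0.947), which were lower in set 2 (0.13, 0.06 and 0.17) than in set 1 (0.27, 0.22 and 0.33).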

How the data were processed

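The authors deposited scanner intensity values for each spot and channel, extracted without normalization, and a table of log2 ratios that they had normalized per print tip. A further deposited table of the authors' own comparisons, made with limma 2.12.0 per the labels, holds log2 ratios and p-values and was not used. In limma 3.58.1 (R 4.3.3) the intensities of 15552 spots were background-corrected by normexp with an offset of 50 and normalized by loess within each array with control spots at weight 0, each ratio was given as sample over reference from the dye each label names, and the 2 spots of a probe were averaged. The series' text states the opposite dye order. In direction, 11 of the 12 columns of the deposited log2 table followed the labels (r of 0.901 to 0.973 across gene probes), and the column of array 1 of cho2 medium ran the other way (r = -0.913) and was turned.

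One linear model across the 12 arrays held a mean for each medium and a term for the dye (5 residual degrees of freedom). The p-values were two-sided, adjusted by Benjamini-Hochberg over the 6388 gene probes at a limit of 0.05. Fits were tested on simulated data with the same dye effect in both sets. That test could not show how an array difference that is unlike between the sets alters the fit. The number of arrays limits the precision. Array number, which coincides with dye, pairs the arrays: deviations of same-numbered arrays correlated at 0.31 to 0.817 within a set, and at -0.468 to 0.54 once the dye term was removed. Probe names came from the platform annotation, which gives a symbol for 5326 gene probes, and Ty families, regulators and markers from lists written for this work. The frames, lists and tests were chosen with earlier results of these data known. Named genes were the 4 frames, the 3 highest and 3 lowest other Ty probes by mean ratio, the 5 smallest p where more passed, the 6 probes most and the 3 least like the frames, TEC1, STE12, GCN4, SPT3, and the 3 smallest p of each regulator list, or any past the limit; genes outside this rule stand for counts or for probes of the same frame. Alternatives were another background, normalization, probe filter, dye term or array subset, the deposited log2 table, and leaving out each array. A contrast of array 2 minus array 1 between the sets was added after the data were seen.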

Additional observations from a re-analysis of the deposited data

Results flagged for a closer look

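The YDR261W-B probe 2, a Ty2 gag-pol frame that was not among the 4, had a difference between its arrays that was not the same in the sets. Array 2 minus array 1 was 0.62 higher in set 2 than in set 1 on the log2 scale (limma, adjusted p = 0.0431). The contrast was added after the pattern had been seen in YFL002W-B and YDR210W-B, and the ratios of this probe correlate at 0.996 with those of YFL002W-B, so this is no independent support. Loess within each print tip gave 0.59 (adjusted p = 0.0929). With 1 array left out the gap was 0.56 to 0.68 with an adjusted p of 0.0474 to 0.325, past the limit in 2 of 12 such fits, both without an npl3 array. YFL002W-B and YDR210W-B had gaps of 0.73 and 0.53 in that contrast, given as a description.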

How the results depend on the processing

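The mean of the 4 frames stood at 0.22 for bur2 minus cho2 medium and moved by more than the spread between arrays with the deposited log2 table, to 0.36. With no dye term 3 of the other Ty probes, in place of 11, passed in set 2 against set 1, and 9 to 13 did under the other settings, with 13 when the array number was a replicate block in each set. The replicate block changed no other call, with 0 other Ty probes past the limit in each comparison between media. Every mean of the frames stayed as it was (0.39 for set 2 minus set 1). This was fixed by the design, as each medium has 1 array per dye, and is no check of the means.

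With each array left out in turn, the mean of the 4 frames ranged from 0.11 to 0.34 for bur2 minus cho2, from 0.10 to 0.33 for bur2 minus wild-type, from -0.10 to 0.09 for cho2 minus wild-type, from -0.31 to 0.0016 for cbf1 minus npl3, from -0.13 to 0.18 for cbf1 minus wild-type, from 0.09 to 0.26 for npl3 minus wild-type, from 0.34 to 0.44 for set 2 minus set 1 and from 0.05 to 0.13 against the reference. The count of other Ty probes past the limit ranged from 0 to 1 for bur2 minus cho2, from 0 to 3 for bur2 minus wild-type and from 9 to 11 for set 2 minus set 1, and stayed at 0 in the other comparisons. Where an arm was left with 1 array, it was assumed to vary like the others and was adjusted by the dye term fitted over both sets. For the Ty2 frames, whose array difference was not the same in the sets, such values do not stand for the array left alone. For YDR210C-D the sign turned under loess within each print tip for bur2 minus wild-type (-0.15) and bur2 minus cho2 (-0.12). The cause was not tested. Which copies the probes bind was not tested, so these ratios cannot be tied to a single locus. With 2 arrays a medium the fit over all arrays called no other Ty probe between media.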
